A study of Mus musculus with 378 samples.

Results

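Pancreatic islets of Diversity Outbred mice were ranked by how much RNA of mitotic genes they held, and the islets with the most were compared with those with the least across all genes. The ranking used 5 genes of dividing cells, Mki67, Top2a, Cenpf, Tpx2 and Cenpe. Each gene's deposited variance-stabilised value was turned into a z-score among females and among males separately, and the mean of the 5 z-scores was the proliferation score. Libraries were ranked by it and divided into 4 groups, called lowest, lower-middle, upper-middle and highest. The highest group held 94 islet libraries (43 from females, 51 from males) and the lowest 94 (39 and 55), each 24.9% of all libraries, and the middle groups held 95 each. Each library came from a different mouse of this outbred stock, in which every animal carries its own mix of founder genomes, so the groups differ in genotype throughout and no treatment separates them. All mice ate a high-fat, high-sugar diet labelled as 45% fat, and poly(A) RNA of whole islets was sequenced. Sex was read from the letters F and M in the titles, and no age of the mice was stated. The titles number the mice from 21 to 420, and 4 bands of 100 numbers served as a covariate beside sex, without a statement in the labels on what a band stands for.

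Islets are clusters of endocrine cells: beta cells secrete insulin, alpha cells glucagon, delta cells somatostatin and PP cells pancreatic polypeptide, among endothelial cells, pericytes and macrophages. Beta cells of adult mice divide rarely, and more of them do so under obesity, insulin resistance or pregnancy. A cell that divides copies its DNA in S phase with helicases, polymerases and nucleotide-making enzymes driven by E2F factors, and then makes the cyclins, kinases and motor proteins of mitosis under the MuvB complex with B-Myb and FoxM1. Because mitotic transcripts are made late in the cycle and then destroyed, their amount in a tissue broadly follows how many cells are in or near mitosis. In bulk RNA, fewer cells of a type and less RNA per cell cannot be told apart, and RNA of dividing beta cells cannot be told apart from RNA of other dividing cells.

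Levels of the score genes are given as CPM, which are counts scaled to one common library total after TMM normalisation, and they are a description, since these values chose the groups. Mki67, the Ki-67 antigen that coats mitotic chromosomes, ran from 0.936 to 3.89 CPM in the lowest group, with a median of 2.06, and from 3.46 to 48.7 in the highest, with a median of 6.62. Top2a, the topoisomerase that untangles replicated DNA, had medians of 1.73 and 7.72 CPM. The kinetochore protein gene Cenpf had medians of 0.419 and 1.93 CPM, the spindle assembly factor gene Tpx2 0.493 and 1.92, and the kinetochore motor gene Cenpe 0.461 and 1.64. All pairs of the 5 genes moved together over all libraries, with Pearson correlations of the deposited values between 0.87 and 0.941. The score had a long upper tail, from -1.7966 to -0.6452 in the lowest group and from 0.3958 to 4.8795 in the highest. At the edges, the last library inside the lowest group scored -0.6452 and the next one outside -0.6438, while the last one inside the highest group scored 0.3958 and the next outside 0.3924. Because the score was scaled within each sex, one unit of score stands for a wider range of RNA in males. The SD of the deposited value of Mki67 was 0.378 in females and 0.723 in males, and the median level in the highest group was 4.58 CPM in females and 9.29 in males.

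**Figure D1:**
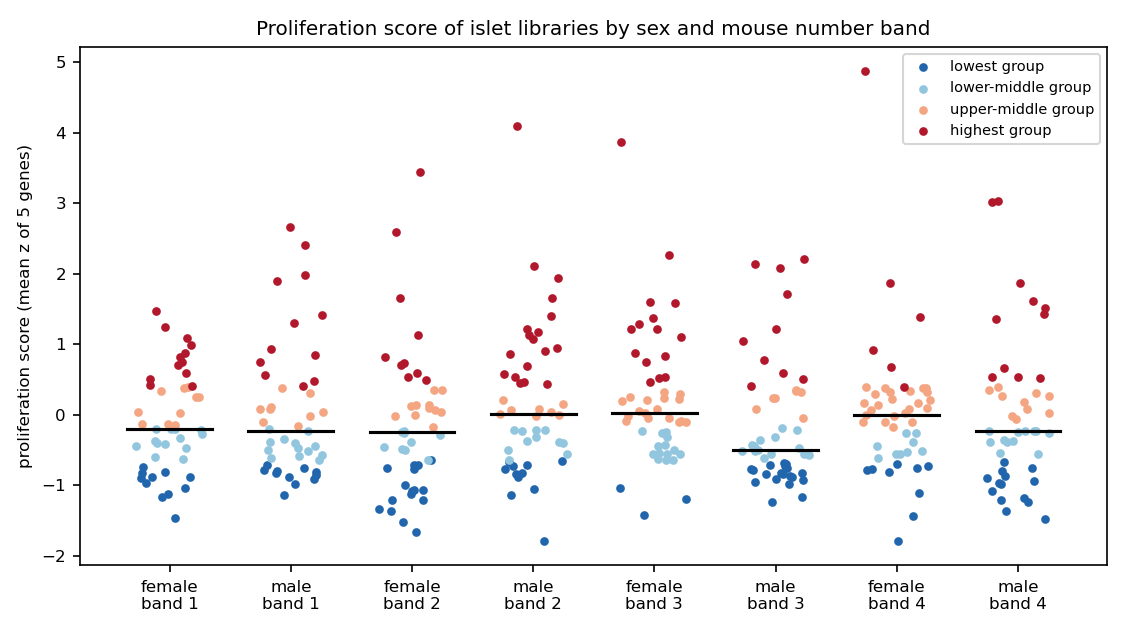
Proliferation score (mean z of 5 genes, no unit) of each islet library, by sex and band of mouse numbers; points are libraries coloured by group of the score and black lines are medians. Each column holds libraries of every group, with few females of band 3 in the lowest group (3) against 15 in the highest.

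The groups were spread unevenly over sex and band. Females of band 3 gave 3 libraries to the lowest and 15 to the highest group, and males of that band 19 and 10. Total counts were alike, from 19666162 to 44148765 in the lowest group and from 17444427 to 68757039 in the highest. The labelled tissue was borne out by its markers, as the lowest library of either group held 46900 CPM of Ins2, 15600 of Ins1 and 1370 of Gcg. Sex and band were covariates in edgeR's quasi-likelihood test, from which all adjusted p-values come unless another tool is named. Since the groups were formed from RNA of the same libraries, a p-value says that a gene moved with the score among these mice and nothing of an intervention.

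Without the score genes, 3753 of 16887 genes tested (22.2%) were higher and 3744 (22.2%) lower in the highest group at an adjusted p under 0.05, together 44.4%. Most of these differences were small: 2.18% of genes were higher and 0.959% lower by 1.5-fold or more. With scores for 6 cell types as further covariates (acinar, duct, endothelial, stromal, macrophage, and T and NK cells), 1824 genes (10.8%) were higher and 1773 (10.5%) lower. The share of any gene group that passed the test is read below against these percentages.

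Mitotic genes outside the score were higher almost without exception, which describes the ranking and does not test it, because they belong to the same programme as the score genes. In the list of mitotic kinases and cyclins, 20 of 21 tested members were higher and the median log2 difference was 1.26, against -0.0028 over all genes. Ccnb1, cyclin B1, had 0.0275 to 0.927 CPM (median 0.349) in the lowest group and 0.521 to 12.1 CPM (median 1.59) in the highest, 5.32-fold higher by the model (log2 difference 2.41 ± 0.11, SE). Its ranges overlapped only between 0.521 and 0.927 CPM. Cdk1, the kinase that cyclin B1 activates, had medians of 0.381 and 1.43 CPM and a log2 difference of 2.18 ± 0.11. Pbk, a mitotic kinase, differed by 2.61, Bub1, a spindle checkpoint kinase, by 2.47, Nek2, a centrosome kinase, by 2.36, and Cdc20, an activator of the anaphase-promoting complex, by 1.82 on the log2 scale. Of the spindle and cytokinesis genes 27 of 28 were higher (median 1.08), among them Hmmr, a spindle-pole protein gene, with 0.083 to 1.02 CPM in the lowest and 0.478 to 12 CPM in the highest group and a log2 difference of 2.41. The chromokinesin gene Kif4 differed by 2.17 and the cytoskeleton-associated Ckap2l by 2.12. Of the kinetochore and chromosomal passenger genes 21 of 22 were higher (median 0.86), led by Casc5 (1.80), Nuf2 (1.61) and Ndc80 (1.52), which link microtubules to chromosomes.

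Promoters are shown for 6 members of the cell division lists, because genes of late cell division are known for pairs of CCAAT boxes, bound by NF-Y, and for the cell cycle homology region (CHR), bound by MuvB. They had the largest differences among members that the RefSeq promoter table holds, after genes with several promoter windows and a chromosome left out of the search were passed over. Each sequence holds the 120 bases before the RefSeq start (GRCm38.p6, read in the direction of the gene). Capitals mark CCAAT on either strand (CCAAT or ATTGG) and the CHR on either strand (TTTGAA or TTTAAA or TTCAAA).
Ccnb1 (chr13:100786487-100786606, minus strand): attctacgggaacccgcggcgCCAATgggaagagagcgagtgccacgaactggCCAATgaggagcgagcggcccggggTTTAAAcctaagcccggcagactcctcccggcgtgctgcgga
Cdk1 (chr10:69352913-69353032, minus strand): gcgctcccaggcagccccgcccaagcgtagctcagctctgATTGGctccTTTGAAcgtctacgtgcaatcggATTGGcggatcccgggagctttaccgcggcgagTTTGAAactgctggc
Bub1 (chr2:127831860-127831979, minus strand): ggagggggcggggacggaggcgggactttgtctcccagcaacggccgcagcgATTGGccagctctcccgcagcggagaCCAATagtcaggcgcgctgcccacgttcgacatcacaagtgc
Hmmr (chr11:40733438-40733557, minus strand): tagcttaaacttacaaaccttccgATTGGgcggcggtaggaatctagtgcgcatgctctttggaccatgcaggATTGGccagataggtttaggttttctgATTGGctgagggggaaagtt
Nek2 (chr1:191821353-191821472, plus strand): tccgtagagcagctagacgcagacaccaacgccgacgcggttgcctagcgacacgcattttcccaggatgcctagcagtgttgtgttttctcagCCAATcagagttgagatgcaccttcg
Clspn (chr4:126556860-126556979, plus strand): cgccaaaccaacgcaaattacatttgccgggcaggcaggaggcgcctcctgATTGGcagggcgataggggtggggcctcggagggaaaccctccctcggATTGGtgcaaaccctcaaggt
In Ccnb1, 2 CCAAT boxes stand ahead of a TTTAAA, and Cdk1 has 2 ATTGG and 2 TTTGAA. Bub1, Nek2 and Clspn have CCAAT boxes but no CHR letters in the stretch shown, and Hmmr has 3 ATTGG. Over all 32851 promoter windows of 300 bases (250 before and 50 after the start), 37.4% held a CCAAT box, 27.6% a CHR and 10.7% both. Of the 31 windows of spindle and cytokinesis genes 64.5% held a CCAAT box, 83.9% a CHR and 61.3% both, and of the 19 windows of mitotic kinases and cyclins 63.2% held both. Both were in 33.3% of the 24 windows of kinetochore and chromosomal passenger genes. An E2F motif (TTTCGCGC or TTTGGCGC or TTTCCCGC, either strand) was in 1.84% of all windows and in 33.3% of the 36 windows of DNA replication genes. A match is a string of letters and was not tested for binding.

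S-phase genes moved less than mitotic genes, and some were lower with both sexes in the fit. Of 38 DNA replication genes tested 21 were higher and 5 lower, with a median log2 difference of 0.15. With the cell type scores 14 were higher and 2 lower (10.8% and 10.5% of all genes). In females alone 7 were higher and 0 lower (1.18% and 0.414% of all genes), with 10 and 2 at an unadjusted p under 0.05. In males alone 22 were higher and 4 lower (23.2% and 23% of all genes). The checkpoint mediator gene Clspn (0.2 CPM at the median of the lowest and 0.754 of the highest group, log2 difference 2.19), the DNA methylation maintenance gene Uhrf1 (1.61), the leading-strand polymerase gene Pole (1.07) and the ribonucleotide reductase gene Rrm2 (0.92) were at the upper end. Rrm2 had 1.16 to 4.13 CPM (median 2.14) in the lowest group and 1.72 to 13.8 CPM (median 3.8) in the highest, so its ranges overlapped widely. Pcna, the sliding clamp of the replication fork and a common marker of proliferation, was lower in the highest group, with medians of 64.2 and 58.6 CPM and a log2 difference of -0.18 ± 0.03 (adjusted p = 9.1e-07). Condensin and chromatin genes were 11 higher and 4 lower of 16 (median 0.32), from Ncaph (1.68), a condensin subunit gene, and the histone chaperone gene Asf1b (0.98) to the maintenance methyltransferase gene Dnmt1 (-0.20), which was named after its value was seen. Among replication-dependent histone genes, a set picked by symbol after the data were seen, 8 of 31 passed the test, all of them higher. That number is near the share over all genes, of which 22.2% were higher.

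Of 17 transcription regulators of the cycle 8 were higher and 2 lower, with a median of 0.07. E2f1 had 1.36 to 9.97 CPM (median 5.01) in the lowest and 2.31 to 27.3 CPM (median 7.84) in the highest group (log2 difference 0.91 ± 0.08, adjusted p = 3.35e-19), E2f2 differed by 0.68 and Foxm1 by 0.54. Myc did not pass the test (0.06 ± 0.06, adjusted p = 0.38), and Mycl was lower by a log2 difference of -0.45. Over the G1 cyclins, kinases and inhibitors, 9 of 17 were higher and 3 lower, with a median of 0.08.

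The G1 gene with the largest difference was an inhibitor. Cdkn2c, which encodes the CDK4 and CDK6 inhibitor p18, had 0.802 to 4.39 CPM (median 2.2) in the lowest group and 1.63 to 11.2 CPM (median 3.64) in the highest, 1.97-fold higher (log2 difference 0.98 ± 0.07, adjusted p = 3.15e-27). Its levels overlapped, and 0.74 of the log2 difference was left with the 6 cell type scores in the model. Ccne1, cyclin E1, was higher by 0.41 and Cdk2 by 0.25. The D-type cyclins, which start the cycle in beta cells, were not higher: Ccnd2 had medians of 812 and 838 CPM (0.03 ± 0.04, adjusted p = 0.614), and Ccnd1 had medians of 84.8 and 74.7 CPM (-0.17 ± 0.07, adjusted p = 0.0267). The p21 gene Cdkn1a was higher by 0.14 (adjusted p = 0.0402), and Cdkn2a, the p16 gene, was too low to be tested.

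Targets of p53, a list of 15 genes, were 10 higher and 1 lower, with a median of 0.18. Fitted apart, 11 were higher and 1 lower in males (median 0.30, against 23.2% and 23% of all genes). Females alone gave 1 higher and 1 lower (median 0.02), where 1.18% of all genes were higher and 0.414% lower. With the cell type scores 5 were higher and 1 lower (median 0.11, against 10.8% and 10.5% of all genes). Trp53inp1, a pro-death and autophagy gene, had 13.6 to 148.2 CPM (median 56.8) in the lowest group and 31.1 to 265.1 CPM (median 90.2) in the highest (log2 difference 0.72 ± 0.07, adjusted p = 2.24e-19). Bbc3, the PUMA gene of apoptosis, was higher by 0.79 and Sesn2, a stress-induced inhibitor of mTORC1, by 0.54. Psrc1 was higher by 1.00, and it is a spindle protein gene as well as a p53 target. Genes that p53 induces in most cells, Mdm2 (0.02) and Bax (0.03), did not pass the test, and they were picked after their values were seen.

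**Figure D2:**
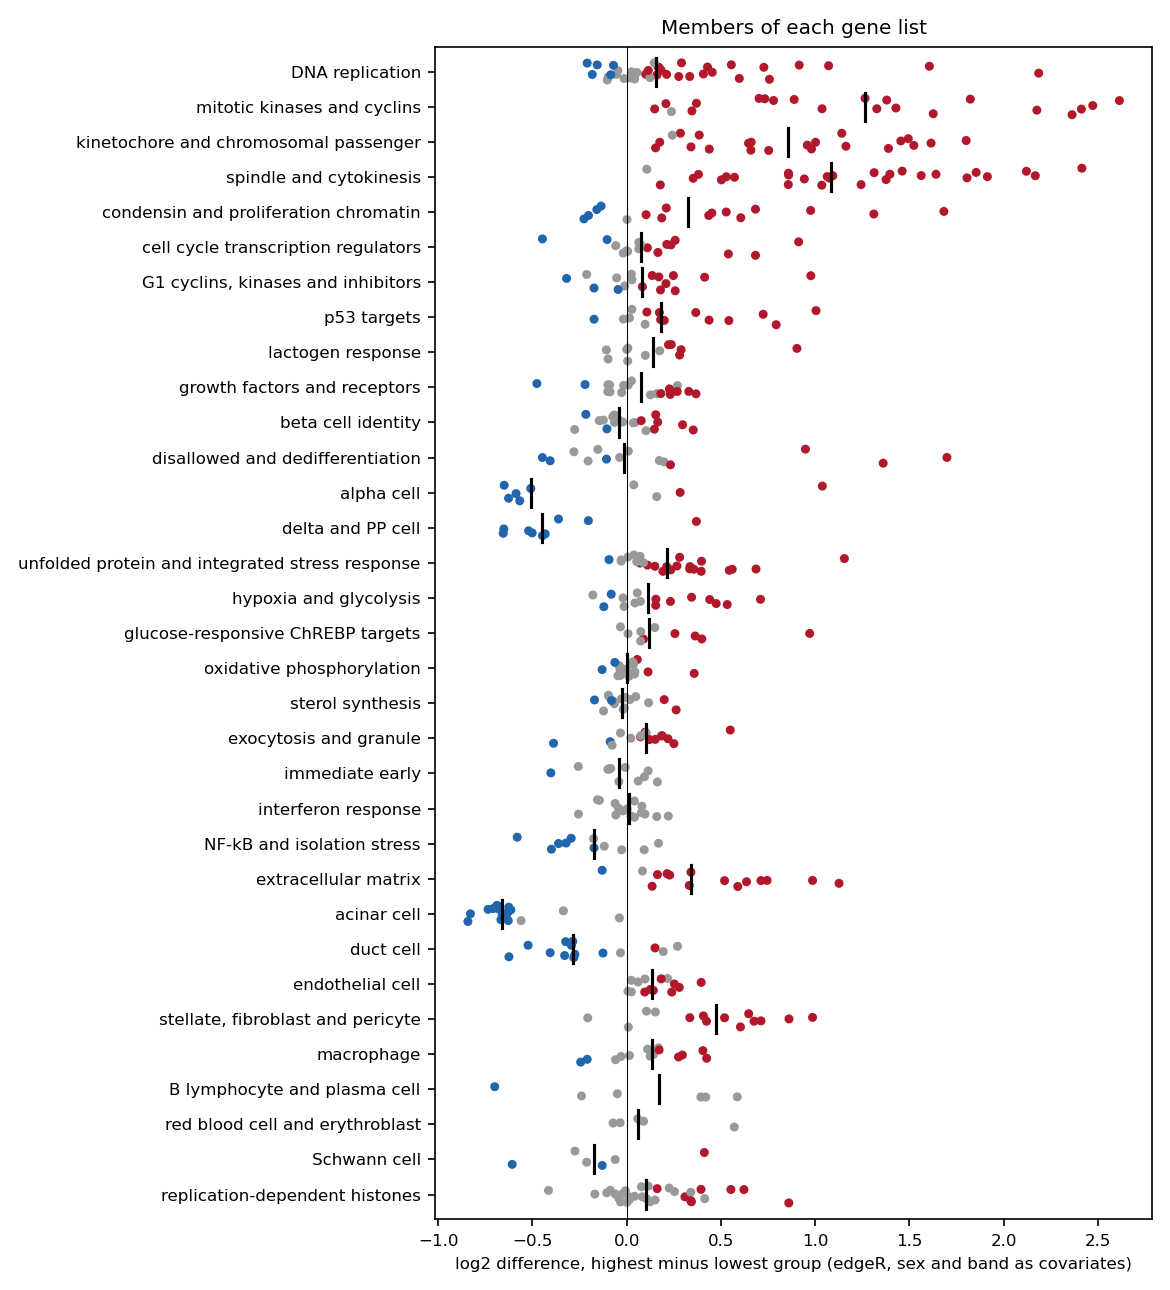
Log2 difference (highest minus lowest group, edgeR with sex and band as covariates) of every tested member of 33 gene lists; red points passed the test as higher, blue as lower, grey did not pass, and black lines are medians. Mitotic lists lie far to the right (median 1.26 for kinases and cyclins), and acinar, alpha, delta and PP cell lists to the left (acinar median -0.66).

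Outside the cell division lists, 15 genes are named for their differences upward, the largest among genes with a mean of at least 2 CPM and one sign in both sexes and all 4 bands. C1qtnf1 (chr11:118428203-118449963, GRCm38), a gene of a secreted C1q and TNF-related protein, had 0.453 to 6.49 CPM (median 1.4) in the lowest group and 0.315 to 83.7 CPM (median 2.14) in the highest, 3.04-fold higher (log2 difference 1.60 ± 0.20, adjusted p = 1.32e-11). Most libraries of the highest group lay within the range of the lowest, and a tail of males lay above it. Dapl1 (chr2:59484653-59505020), a relative of the death-associated protein DAP, had 0.814 to 23.7 CPM (median 5.89) and 2.66 to 131.9 CPM (median 12.6), a log2 difference of 1.37 ± 0.14. Its 2 ranges overlapped, with the highest value in a male, and with the cell type scores the log2 difference was 0.94 (adjusted p = 1.91e-06).

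An enzyme that makes retinoic acid and one that breaks it down were among these 15. Aldh1a3 (chr7:66390890-66427517), the retinoic acid-making dehydrogenase known as a marker of dedifferentiated beta cells, had 0.268 to 71.3 CPM (median 2.15) in the lowest and 0.3 to 208.3 CPM (median 4.64) in the highest group. Its log2 difference was 1.36 ± 0.25 (adjusted p = 2.14e-06), and with cell type scores it was 0.28 and did not pass (adjusted p = 0.468). Only 1.06% of its library values were whole numbers in the deposited estimates. Cyp26b1, which breaks retinoic acid down, rose from a median of 0.582 to 1.08 CPM (1.26 ± 0.24), and likewise did not pass with cell type scores (0.26, adjusted p = 0.458).

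Several other genes kept most of their difference when cell type scores were added. Rhd, an ammonium transporter gene of the Rhesus family, was higher by 1.17 (0.75 with the scores), the microtubule-destabilising Stmn1 by 1.13 (1.02), Klhl24, a ubiquitin ligase adaptor gene, by 1.02 (0.71), and the chaperone-like Dnajc28 by 0.99 (0.71). Klhl24 had 6.94 to 44 CPM (median 18.1) in the lowest group and 15.1 to 140 CPM (median 32) in the highest, with wide overlap (adjusted p = 6.76e-22). The water channel gene Aqp1 (1.26, 0.27 with the scores) and the branched-chain aminotransferase gene Bcat1 (1.00, 0.35) lost most of theirs and did not pass with the scores. The long noncoding RNA gene Snhg18 (1.11), the lysine-degrading enzyme gene Aass (1.09) and the vitamin D-binding protein gene Gc (1.04) completed the group, with Prss3 (1.04), a trypsinogen gene with close relatives, for which 3.7% of the library values were whole numbers, so its level is uncertain.

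**Figure D3:**
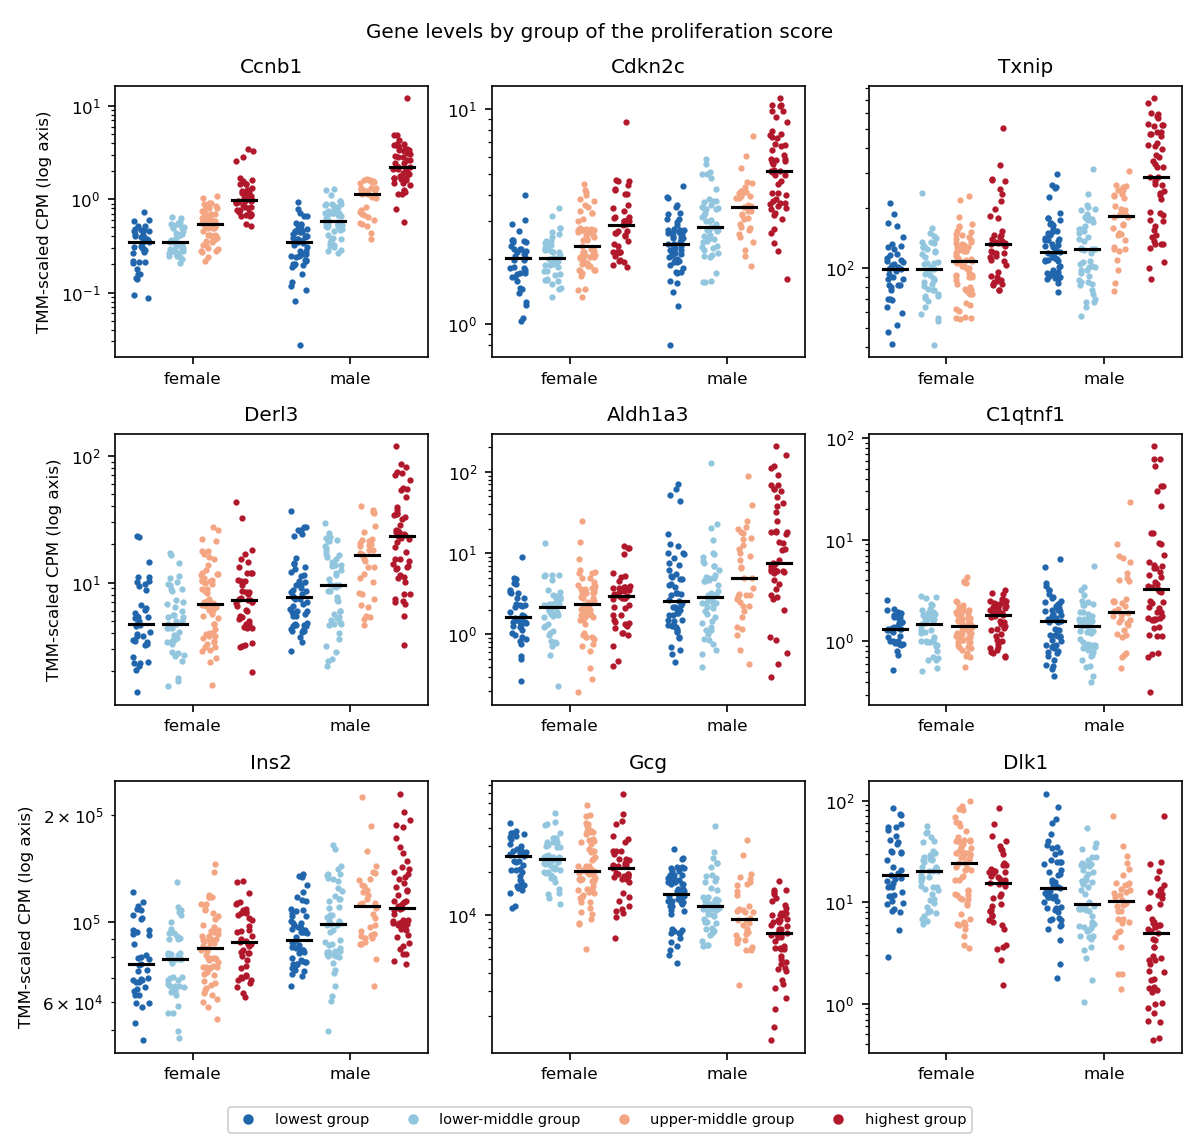
CPM after TMM scaling (log axis) of 9 genes in each library, by sex and group of the score; points are libraries and black lines medians. Ccnb1 rises in both sexes, while the upper tails of Aldh1a3 (up to 208.3 CPM) and C1qtnf1 (up to 83.7 CPM) are in males.

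Genes of the unfolded protein and integrated stress responses were 17 higher and 1 lower of 25, with a median log2 difference of 0.21. Fitted apart, in males alone 17 of 25 were higher (median 0.29, against 23.2% of all genes higher), and in females alone edgeR called 0 of 25 (median 0.08, 1 higher at an unadjusted p under 0.05), where 1.18% of all genes were higher and 0.414% lower. Derl3, a component of endoplasmic reticulum-associated degradation, had 1.36 to 36.6 CPM (median 6.05) in the lowest and 1.97 to 119.3 CPM (median 12) in the highest group (log2 difference 1.15 ± 0.14, adjusted p = 2.97e-12). Trib3, a pseudokinase gene induced by ATF4 and CHOP, had 12.1 to 108.97 CPM (median 40.1) and 13.7 to 204.9 CPM (median 65), a difference of 0.69 ± 0.09. Chac1, an ATF4 target that degrades glutathione, was higher by 0.54, Nupr1, a stress-induced chromatin factor gene, by 0.36 and the asparagine synthetase gene Asns by 0.21. The chaperone gene Hspa5 had medians of 2410 and 2470 CPM (-0.03 ± 0.05, adjusted p = 0.648) and Xbp1 422 and 425 CPM (adjusted p = 0.798), both picked after their values were seen. With the cell type scores 8 of the 25 were higher, with a median of 0.10.

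Txnip, which encodes the thioredoxin-interacting protein and is induced by glucose through ChREBP, had 41.7 to 297.7 CPM (median 110.6) in the lowest group and 77.3 to 711 CPM (median 180.7) in the highest. The ranges overlapped over most of the lowest group, and the log2 difference was 0.97 ± 0.09 (1.96-fold, adjusted p = 1.37e-17), with 0.74 left after adding the cell type scores. Of the 10 ChREBP targets 5 were higher, among them the related arrestin gene Arrdc4 (0.36), the fructose-metabolising Tkfc (0.40) and the pyruvate kinase gene Pklr (0.26). Hypoxia and glycolysis genes were 8 higher and 2 lower of 16. Their largest differences were those of Ankrd37 (0.71), a HIF-1 target, and Pdk1 (0.44), the kinase that shuts off pyruvate dehydrogenase, while the glycolytic Aldoa was lower (-0.12).

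Among lactogen-response genes, which prolactin induces in beta cells in pregnancy, 5 of 12 passed the test, all of them higher. The prolactin receptor gene Prlr had 93.9 to 436 CPM (median 214.8) in the lowest and 118.9 to 561 CPM (median 282.7) in the highest group (log2 difference 0.28 ± 0.07, adjusted p = 0.000185). Fkbp11, an endoplasmic reticulum prolyl isomerase gene, was higher by 0.90 ± 0.09 (medians 21.6 and 34.7 CPM). Tph1, a serotonin-making enzyme gene that prolactin induces, had medians of 0.488 and 0.392 CPM and did not pass (adjusted p = 0.847). Growth factor and receptor genes were 7 higher and 2 lower of 20, the lower ones being Igf2 (-0.48) and Igf1r (-0.22), and Igfbp3 (0.37) and Insr (0.18) among the higher. The direction of the calls turned with the cell type scores, when 0 of these 20 genes were higher (1 at an unadjusted p under 0.05) and 5 lower by edgeR (median 0.0081).

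Insulin RNA was slightly higher in the highest group. Ins2 had 46900 to 136000 CPM (median 85100) in the lowest and 61800 to 229000 CPM (median 100000) in the highest group, a log2 difference of 0.30 ± 0.04 (1.23-fold, adjusted p = 2.08e-09), and Ins1 had medians of 30000 and 35300 CPM (0.35 ± 0.06). The estimated counts of Ins1 and Ins2 were fractional in all libraries, as where reads are divided between near-identical genes, so their split is uncertain. Iapp, the amyloid polypeptide co-secreted with insulin, was higher by 0.16 ± 0.04 (adjusted p = 0.000122), by 0.01 in females alone and by 0.29 in males alone. Of the 21 beta cell identity genes 6 were higher and 2 lower, below the 44.4% of all genes, with a median of -0.04. The maturity genes Ucn3 (-0.06, adjusted p = 0.308), Slc2a2 (-0.05, adjusted p = 0.589) and Mafa (-0.28 ± 0.16, adjusted p = 0.144) did not pass, and the incretin receptor gene Gipr was lower (-0.22). Granule genes were 9 higher and 2 lower of 16, from Chgb, chromogranin B (0.55 ± 0.08, medians 1420 and 1620 CPM), and the carboxypeptidase gene Cpe (0.22) to the fusion protein gene Stx1a (-0.39 ± 0.05). With the cell type scores 3 of them were higher and 2 lower (10.8% and 10.5% of all genes). In females alone edgeR called 0 of the 16 granule and 0 of the 21 identity genes, where 1.18% of all genes were higher and 0.414% lower. At an unadjusted p under 0.05, 2 and 2 were higher there and 2 and 1 lower. In males alone 10 and 5 were higher and 2 and 4 lower (23.2% and 23% of all genes). Chgb differed by 0.20 in females and by 0.86 in males.

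Genes that beta cells normally keep low, or that mark dedifferentiation, did not move as a group: 4 of 14 were higher and 3 lower, with a median of -0.01, and with the cell type scores 2 were higher and 5 lower (median -0.15). Besides Aldh1a3, Gast (chr11:100334407-100336996), the gastrin gene, had 0.0404 to 0.966 CPM (median 0.284) in the lowest and 0.0635 to 35.6 CPM (median 0.391) in the highest group. Its log2 difference was 1.70 ± 0.23 (adjusted p = 9.87e-11), and all libraries above the range of the lowest group were male. Serpina7, the thyroxine-binding globulin gene, was higher by 0.95 ± 0.14.

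Glucagon and the other non-beta hormones were lower. Gcg had 4700 to 43700 CPM (median 17400) in the lowest and 1370 to 69200 CPM (median 11100) in the highest group, with a log2 difference of -0.57 ± 0.09 (adjusted p = 7.17e-08). The range of the lowest group lay inside that of the highest, and the library with the highest value was in the highest group. Of 9 alpha cell genes 5 were lower and 2 higher (median -0.51). The lower ones included the transcription factor gene Irx2 (-0.59), and Gc went the other way. Of 9 delta and PP cell genes 8 were lower and 1 higher (median -0.45). Sst, somatostatin, had medians of 1110 and 878 CPM (-0.50 ± 0.12), Ppy, pancreatic polypeptide, 1090 and 764 CPM (-0.52 ± 0.10), and the ghrelin receptor gene Ghsr 6.83 and 4.65 CPM (-0.65 ± 0.11), while the leptin receptor gene Lepr was higher (0.37). None of the 6 cell type scores was of an endocrine cell, and with them Gcg still differed by -0.55 (adjusted p = 2.62e-05). In females alone edgeR called 0 of the 9 alpha and 0 of the 9 delta and PP cell genes (medians -0.18 and -0.35), where 0.414% of all genes were lower. At an unadjusted p under 0.05, 2 and 7 were lower and 1 and 0 higher. In males alone 5 and 7 were lower (23% of all genes).

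By the same rule 15 genes are named for their differences downward outside the division lists, and Miat had the largest. Miat (chr5:112213228-112229395), a long noncoding RNA gene, had 0.154 to 15.6 CPM (median 2.11) in the lowest and 0.0548 to 6.66 CPM (median 1.13) in the highest group (log2 difference -1.09 ± 0.16, adjusted p = 7.92e-09). Neuropeptide genes Vip (-0.95 ± 0.22) and Trh (-0.87 ± 0.18) fell, from medians of 3.08 to 1.64 CPM and of 4.16 to 1.98 CPM. The imprinted genes Dlk1 (-0.95 ± 0.18), Nnat (-0.88 ± 0.17) and Mest (-0.77 ± 0.12) fell as well. Dlk1, a Notch-related membrane protein gene, had 1.78 to 117 CPM (median 15.1) in the lowest and 0.438 to 84.2 CPM (median 7.87) in the highest group. Its ranges overlapped between 1.78 and 84.2 CPM, and the libraries of the highest group below 1.78 CPM were mostly male. Kcnk3, a potassium leak channel gene, fell from a median of 24.5 to 15.6 CPM (-0.77 ± 0.09, adjusted p = 3.97e-13). The inner-ear matrix gene Coch (-0.93), the iron hormone gene Hamp (-0.89), the interferon-induced chemokine gene Cxcl11 (-0.87), the fibrinogen chain gene Fgb (-0.78), and the sphingolipid enzyme gene Ugt8a (-0.78) were further members. Serpina1a (-0.97), Amy2a4 (-0.89) and Pla2g1b (-0.81) are genes of liver or acinar secretion. The first and the second have close copies and were whole numbers in 0.79% and 0% of libraries, so their levels are uncertain.

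Markers of acinar cells, the enzyme-making cells around islets, were lower in the highest group. Their summed level ran from 130 to 52100 CPM (median 4310) in the lowest and from 181.999 to 61000 CPM (median 2770) in the highest group, so both groups held islets with little and with much acinar RNA. Of 19 tested members 16 were lower (median -0.66), led by Pnlip (-0.84), Try4 (-0.74) and Clps (-0.71), and with the 10 highest-scoring libraries left out 6 were lower (19.6% of all genes were lower then), as were 8 with limma-voom (22.6% of all genes). Within band 3 alone, Pnlip, Clps and Try4 had log2 differences above 0 (0.13, 0.14 and 0.02). Duct cell genes were 10 lower and 1 higher of 14 (median -0.28), with Epcam (-0.28), Cldn7 (-0.27) and Krt18 (-0.29) lower and Krt7 (0.15) higher. In females alone edgeR called 0 of the 19 acinar and 0 of the 14 duct genes, with 0 and 3 lower at an unadjusted p under 0.05. That is near the share over all genes in females alone, of which 0.414% were lower. In males alone 13 and 8 were lower, against 23% of all genes. Summed duct markers ran from 1500 to 6410 CPM (median 2500) and from 1300 to 4790 CPM (median 2230).

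Stromal and vascular markers were higher with both sexes in the fit and in males alone. None passed in females alone, where only 1.18% of all genes were higher. Of 14 stellate, fibroblast and pericyte genes 10 passed, all of them higher (median 0.47), and their summed level ran from 78 to 300 CPM (median 160) in the lowest and from 90.2 to 1700 CPM (median 198) in the highest group. Extracellular matrix genes were 13 higher and 1 lower of 15 (median 0.34). Col3a1, fibrillar collagen III, had 1.38 to 22.7 CPM (median 4.84) and 1.15 to 230 CPM (median 6.29) and differed by 0.99 ± 0.16 (adjusted p = 1.59e-07). The pericyte gene Rgs5 was higher by 0.65, the matrix inhibitor of calcification Mgp by 0.68 and the matrix protein gene Postn by 0.74. Of 14 endothelial genes 8 were higher (median 0.13), with Tek (0.40), the angiopoietin receptor gene, in front, and their summed level ran from 440 to 1080 CPM (median 624) and from 449 to 1390 CPM (median 650). In males alone 10 of 14 stellate, 11 of 15 matrix and 7 of 14 endothelial genes were higher, with medians of 0.77, 0.60 and 0.17. The share over all genes was 23.2% higher there. In females alone edgeR called 0 genes of these 3 lists in either direction (medians 0.05, 0.02 and 0.11), near the share over all genes there. At an unadjusted p under 0.05, 1, 2 and 1 were higher. Macrophage genes were 5 higher and 2 lower of 14, with Lyz2 at 0.42 and Cd68 at -0.24, and a summed level of 57.4 to 182.06 CPM (median 95.2) and 50.6 to 240 CPM (median 91.7). Without band 4, 0 macrophage genes were higher and 1 lower, where 3103 and 2880 of 16993 genes were. With limma-voom 2 macrophage, 7 stellate and 9 matrix genes were higher, and 1, 0 and 1 lower (3605 and 3819 of 16887 genes). Only 3 of 14 T and NK lymphocyte genes and 6 of 11 B cell genes were high enough to be tested, of which Cd79a alone passed (-0.70).

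These cell type markers moved with the score beside every other group, and adding their scores to the model changed the medians of the lists unequally. The matrix median went from 0.34 to -0.0035, the stellate list from 0.47 to 0.05, the acinar list from -0.66 to -0.04 and the endothelial list from 0.13 to 0.0004. The last 3 of these lists were themselves among the scores, so their move toward 0 was built into the fit. Col3a1, named above with the matrix genes, was a member of the stellate score, so the matrix median was not independent of the scores either. The mitotic kinases and cyclins went from 1.26 to 1.01 and spindle genes from 1.08 to 1.03, with 19 of 21 and 27 of 28 still higher. The alpha list kept -0.46 and the delta and PP list -0.32. Some medians moved away from 0, those of the lactogen-response genes from 0.14 to 0.20 and of the NF-kB and isolation stress genes from -0.18 to -0.20. The part that cells other than endocrine cells have in the remaining differences was not tested.

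**Figure D4:**
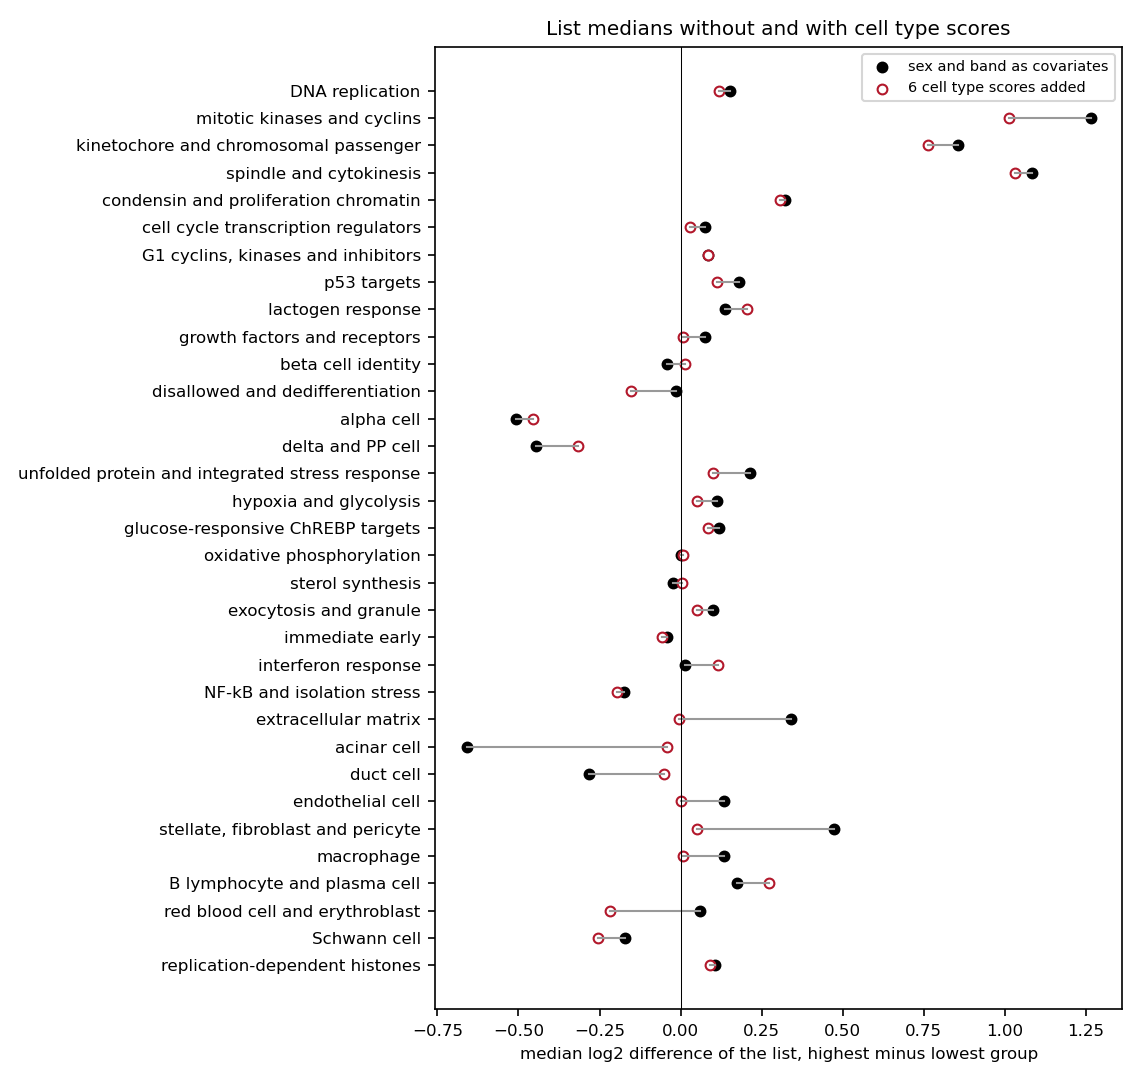
Median log2 difference (highest minus lowest group) of 33 gene lists with sex and band as covariates (black) and with 6 cell type scores added (open red). Acinar, matrix and stellate medians move to near 0 (acinar from -0.66 to -0.04), while those of mitotic kinases and cyclins (1.01) and of spindle genes (1.03) stay above 1. The acinar and stellate lists were themselves among the scores, and the stellate score held Col3a1, a matrix gene.

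Among stress and immune lists of other kinds, 6 of 11 NF-kB and isolation stress genes were lower and no interferon response gene passed the test. The 16 interferon response genes gave 0 calls in either direction with edgeR, 0 at an unadjusted p under 0.05, and 0 with DESeq2, limma-voom and limma on the deposited values. Ifit1, for example, had medians of 283.36 and 251.03 CPM (-0.15 ± 0.14). None of the 11 NF-kB and isolation stress genes was higher, and with the cell type scores 6 were lower as well. The lower ones without the scores included Cxcl2 (-0.58 ± 0.10, medians 8.89 and 5.92 CPM), the NF-kB inhibitor gene Nfkbia (-0.40) and the noncanonical subunit gene Relb (-0.32). Oxidative phosphorylation genes were 3 higher and 2 lower of 19, and sterol synthesis genes 2 and 2 of 16, both below the share over all genes.

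Females and males were then fitted apart, since the score had been scaled within each sex. Among females alone 1.18% of 16895 genes were higher and 0.414% lower, and among males alone 23.2% of 16863 genes were higher and 23% lower. Of the genes called in females and tested in both, 95.9% were called in males in the same direction, which is 3.33% of the 7714 called in males, and 84.5% of those had the same sign in females. Cell division genes made up 31.2% of the higher genes in females and 2.89% in males. In females 14 of 21 mitotic kinases and cyclins were higher (median 0.71) and in males 21 of 22 (median 1.71). Ccnb1 went from a median of 0.346 to 0.981 CPM in females and from 0.351 to 2.22 CPM in males, with close medians in the lowest group and distant ones in the highest.

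Txnip (0.49, adjusted p = 0.0324), Klhl24 (0.50), Dapl1 (0.72), Rhd (0.76), Stmn1 (0.68), Dnajc28 (0.54) and Fkbp11 (0.51) were higher in females alone, as in males. Klhl24, Dapl1, Rhd, Stmn1 and Dnajc28 had been named under a rule that asked for one sign in both sexes. Their shared direction was therefore built in. Gcg had female medians of 25800 and 21200 CPM (-0.18, adjusted p = 0.575) and male medians of 14100 and 7580 CPM (-0.88, adjusted p = 1.19e-08). Col3a1 differed by 0.10 in females and by 1.66 in males, and Derl3 by 0.58 (adjusted p = 0.151) and 1.53. The interactions of these 3 genes with sex are given next.

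**Figure D5:**
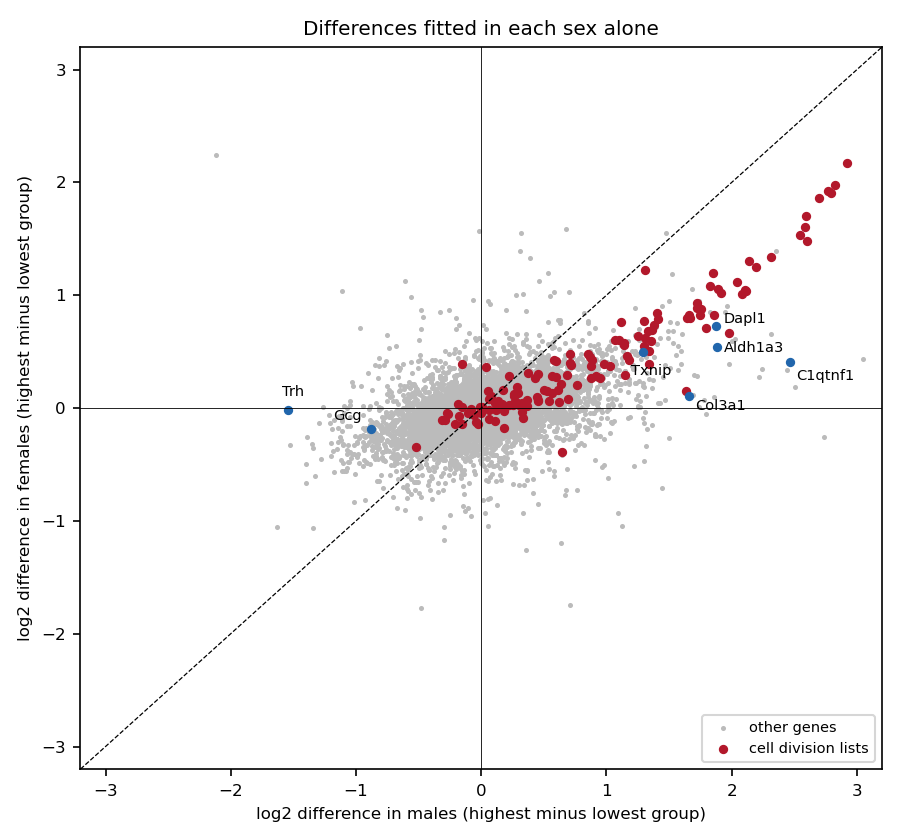
Log2 difference (highest minus lowest group) fitted in females (vertical) against that fitted in males (horizontal), 1 point per gene, with cell division genes in red and 7 named genes in blue; the dashed line marks equal differences. Most cell division genes lie below the line, and C1qtnf1 (0.41 in females, 2.47 in males) and Col3a1 (0.10 and 1.66) lie nearer to the horizontal axis.

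The difference between the sexes was tested as an interaction. By groups, 1319 of 16887 genes (7.81%) differed between females and males, 76 of them cell division genes with a smaller difference in females. It passed for 7 of 14 stellate, 7 of 15 matrix and 8 of 15 p53 target genes. Of the 25 unfolded protein and integrated stress response genes 3 passed. All of these had a lower log2 difference in females. Without band 4 the share was 1.51%, and with the 6 cell type scores it was 0.503%. The contrast in RNA between the groups was itself smaller in females. The interaction was therefore also fitted on the mean deposited value of the 5 score genes, not divided by the spread in each sex (the deposited scale). Deposited values are compressed at low levels. For Cenpf, libraries with 0.442, 2.08 and 6.06 CPM before TMM scaling had deposited values of 6.41, 7.28 and 8.29. Score gene levels in the highest group were lower in females, so a unit need not stand for the same fold in both sexes. On that scale 0.615% of 16911 genes differed, 92 of them with a lower slope in females and 12 with a higher one. The 92 held 0 cell division genes, and the 12 held 1, Pbk, whose slope was higher in females. On this scale 2 of the 14 stellate, 2 of the 15 matrix and 1 of the 15 p53 target genes passed with a lower slope in females. At an unadjusted p under 0.05, 10, 8 and 3 had a lower slope in females and 0 of each list a higher one. The median differences in slope of these lists were -0.64, -0.59 and -0.11. Of the 25 stress response genes 0 passed by edgeR (0 at an unadjusted p under 0.05). Slopes themselves, fitted over all libraries of a sex, were called for 961 genes higher (5.67%) and 726 lower (4.28%) in females and for 4448 (26.4%) and 4704 (28%) in males. Ccnb1 had slopes of 2.39 in females and 1.93 in males per unit of the deposited scale, Cdk1 2.01 and 1.78, and Txnip 0.82 and 0.96. Interactions of these genes did not pass on this scale (adjusted p = 0.0836, 0.526 and 0.83). C1qtnf1 did differ, with slopes of 0.32 in females and 1.90 in males (difference -1.61, adjusted p = 0.000219). Its level in females was 0.525 to 2.55 CPM (median 1.31) in the lowest and 0.698 to 3.21 (median 1.82) in the highest group, and in males 0.453 to 6.49 (median 1.58) and 0.315 to 83.7 (median 3.29). For Gcg, Col3a1 and Derl3 the interaction passed by groups (adjusted p = 0.00726, 0.000705 and 0.0257) and did not on the deposited scale (adjusted p = 0.641, 0.0737 and 0.851). Gast differed on the deposited scale, with slopes of 0.53 and 2.01 (adjusted p = 0.00375), and so did Pappa2, a protease gene that frees insulin-like growth factors (adjusted p = 0.00229), Dnah9, an axonemal dynein gene (adjusted p = 0.00246), and Cdk5rap2, a centrosome gene (adjusted p = 0.000863).

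The middle of the range was compared as well, upper-middle against lower-middle group, where no library of the extremes enters. Outside the score genes, 59 of 16892 genes (0.349%) were higher and 6 (0.0355%) lower, and 29 of the 59 were in the cell division lists. Without band 4, 0.182% were higher and 0.0176% lower. Ccnb1 (0.69), Pbk (0.66), Nek2 (0.62) and Cdk1 (0.49) were among them, as were Stmn1 (0.24), C1qtnf1 (0.54), Derl3 (0.46), Klhl24 (0.28), Txnip (0.28) and Mgp (0.28) outside the lists. Of the genes called higher between the extreme groups 83.96% were higher here too, and of those called lower 79.6% were lower, against 58.26% with the same sign among genes not called. Gcg (-0.08, adjusted p = 0.815) and Dlk1 (0.04, adjusted p = 0.963) did not pass between the middle groups, and their medians over the 4 groups were 17400, 18100, 17300 and 11100 CPM for Gcg and 15.1, 15.7, 15.2 and 7.87 CPM for Dlk1. These pooled medians were close over the first 3 groups, which held unequal numbers of females (39 of 94, 45 of 95 and 61 of 95 libraries), and were low in the highest (43 of 94). Bands were uneven as well: band 4 gave 23, 21, 33 and 17 libraries to the 4 groups, and its females 9, 9, 23 and 6. The pooled medians were adjusted for neither sex nor band. Txnip had 110.6, 105.98, 124.3 and 180.7 CPM and Ccnb1 0.349, 0.489, 0.622 and 1.59 CPM over the same groups.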

How the data were processed

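Poly(A) RNA of pancreatic islets from 378 Diversity Outbred mice (188 females, 190 males) was sequenced, with 15120235 to 68757039 counts per library (median 34800405). The authors deposited a table of estimated counts for 22180 genes, in which 67.7% of values were whole numbers, and a table of variance-stabilised values, which resemble log2 values but are compressed at low levels. GRCm38 and DESeq2 are named, without versions or roles, per the submitters' processing notes, and neither an aligner nor a counting tool is stated there.

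The 4 groups were formed from the deposited variance-stabilised values. Estimated counts were rounded to whole numbers, filtered by edgeR's filterByExpr and scaled by TMM, and fitted with edgeR's quasi-likelihood test (edgeR 4.0.16, R 4.3.3) with sex and band of mouse numbers as covariates. P-values were adjusted by Benjamini-Hochberg over all genes tested, with a threshold of 0.05. Every mouse gave 1 library, so libraries were the replicates. Cell type scores were mean log2 CPM (prior count 2) of the marker lists of acinar, duct, endothelial, stellate, macrophage, and T and NK cells, without cell division genes. Alternatives used DESeq2 1.42.0, limma 3.58.1 (voom, and the deposited values), other scalings, filters, group sizes and subsets. Figures and summaries used Python 3.11.15, NumPy 2.4.6, pandas 2.3.3 and matplotlib 3.10.9.

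The members and gene lists were chosen with earlier results of these data known. Named genes were the 15 largest differences in each direction (adjusted p under 0.05, mean CPM of at least 2, one sign in both sexes and all 4 bands, no placeholder symbols, outside the division lists), the leading members of each list by adjusted p (up to 6 for division lists and 4 for the others), genes fixed by name, and up to 6 genes by the interaction with sex. Some genes that the rule picks are not reported here. On simulated counts of 16834 genes for the comparison of highest with lowest group, with 50 genes for each fold, the fit called 28% of those changed 1.1-fold, 74% of those changed 1.25-fold, 88% of those changed 1.5-fold and 94% of those changed 2-fold. It made 5 false calls. Genes were drawn independently around the mean of each gene, without effects of sex, band or cell type and without variation shared between genes. The number of false calls therefore does not carry over to the shares of genes called in the islet libraries.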

Additional observations from a re-analysis of the deposited data

Results flagged for a closer look

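The difference between the highest and the lowest group differed between females and males for 1319 genes, by edgeR's interaction test with Benjamini-Hochberg adjustment. Values below are the log2 difference in females minus that in males, for genes named in the text that passed this test. Among cell division genes the difference was smaller in females for Cdk1 (-0.94), Ccnb1 (-0.93), Rrm2 (-0.55) and Foxm1 (-0.54). Among genes higher in the highest group it was smaller in females for Gast (-2.31), C1qtnf1 (-2.14), Aqp1 (-1.59), Col3a1 (-1.55), Dapl1 (-1.19), Dnah9 (-1.15), Pappa2 (-1.11), Snhg18 (-1.07), Gc (-1.05), Derl3 (-0.92), Stmn1 (-0.81), Klhl24 (-0.81), Rhd (-0.80), Txnip (-0.77), Dnajc28 (-0.73), Chgb (-0.69), Cdk5rap2 (-0.46) and Iapp (-0.27). Among genes lower in the highest group the fall was smaller in females for Trh (1.54), Dlk1 (1.098), Ugt8a (0.91), Kcnk3 (0.83) and Gcg (0.70).

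The groups stood further apart in males in the score genes themselves. The deposited scale of the score genes does not divide by the spread within a sex, but it is compressed at low levels. On it, over all libraries, the interaction passed for C1qtnf1, Cdk5rap2, Chgb (adjusted p = 0.0337), Dnah9, Gast and Pappa2, and for none of the other genes in the paragraph above.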

How the results depend on the processing

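No paired analysis was possible because every mouse number belongs to 1 library only. Between the highest and the lowest group, 17 alternatives kept both shares of called genes within 1.5 times of 22.2% higher and 22.2% lower (17.6% to 26.1% higher, 16.9% to 26.7% lower), among them DESeq2, limma-voom, the deposited values, both other scalings, both filters, other group sizes, the score as a continuous covariate, and, chosen after seeing the data, the 8 combinations of sex and band and the fit without the 10 highest-scoring libraries. With 6 cell type scores 10.8% of genes were higher and 10.5% lower. Females alone gave 1.18% and 0.414%, and, in fits added after seeing the data, 0.645% and 0.0769% with the cell type scores, while males with those scores gave 5.12% and 4.1%. Fits within bands 1 to 4 gave 4.06%, 3.12%, 6.5% and 11.4% higher and 2.5%, 1.28%, 4.84% and 7.29% lower genes, from fewer libraries each. The interaction with sex was called for 1.51% of genes without band 4, and, both added after seeing the data, for 0.503% with cell type scores and 0.615% on the deposited scale of the score genes over all libraries. The middle groups gave 0.182% higher and 0.0176% lower without band 4. Of the genes named, none that passed the test changed sign with DESeq2, limma-voom, limma on the deposited values or another scaling. Signs turned within band 3 for Clps (0.14), Pnlip (0.13) and Try4 (0.0202) and within band 2 for Lyz2 (-0.025). In females alone they turned for Arrdc4 (-0.0657, and -0.0006 with cell type scores) and Dnah9 (-0.11 and -0.16), and in females with cell type scores for Cd68 (0.0513), Krt18 (0.0854) and Vip (0.014). In males with cell type scores they turned for Aldh1a3 (-0.15), Amy2a4 (0.0926), Cldn7 (0.0079) and Try4 (0.0188). The cause was not tested. The median over all genes lay between -0.0049 and 0.0012 under the 4 scalings. Depth limits the precision of mitotic genes, as every library of the lowest group had under 1 CPM of Ccnb1.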
